A study of Mus musculus with 18 samples.

Results

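Mouse embryonic stem cells (ESCs), which can give rise to all tissues of the embryo, were differentiated with retinoic acid, a derivative of vitamin A, and profiled by bulk RNA-seq. The later step of that course in parental cells is described here: 3 libraries taken at day 6 against 3 taken at day 2, chosen by the genotype and the day in the labels, so 6 of the 18 libraries of the series. All 6 are of the parental genotype, and the differentiating cells were kept on gelatin with retinoic acid at 1.5 ug/ml, after plating as ESCs that the series calls depleted. The labels name no further allele, strain or agent. A second line, labelled Oct1 cKO, was taken at the same days (3 libraries each at day 6 and day 2) and is used once, to set its own step beside that of the parental cells. Oct1, encoded by Pou2f1, is a transcription factor that binds the octamer DNA motif, and the title of the series ties it to Smad factors and mesoderm. Whether replicate libraries stem from different cultures is not labelled, and p-values here reflect only how far the libraries of one group vary, which can be technical. Each culture is bulk material, so fewer cells of a type and less RNA per cell cannot be told apart in any value below.

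Retinoic acid enters cells, binds nuclear receptors on DNA and switches on Hox and other patterning genes, while the pluripotency network is silenced. ESCs treated in this way leave pluripotency within days and then form mixtures of embryonic and extraembryonic cell types whose makeup depends on dose and culture. Primitive endoderm lays down basement membrane and carries Gata factors, trophoblast makes the placenta and its hormones, and mesoderm gives muscle, vessels, the lining of body cavities and connective tissue. Signals of the nodal, BMP, TGF-beta, Wnt and Fgf families steer these choices.

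Total counts ran from 18220411 to 19296966 at day 6 and from 16856689 to 18699153 at day 2. The share of mitochondrially encoded counts was 1.09% to 1.18% at day 6 and 1.30% to 1.65% at day 2, and ribosomal protein genes took 3.15% to 3.23% at day 6 and 4.67% to 4.82% at day 2. Across genes, log2 CPM (counts over a library total scaled by the TMM factor of edgeR) correlated at 0.9937 to 0.9953 between libraries of one day and at 0.848 to 0.8561 between days. No library stood apart from its group. Genes across the transcriptome are not independent replicates, and these correlations only describe the libraries.

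The 4 marker genes of this step were all higher at day 6. Gata6, a zinc finger factor of primitive endoderm and heart mesoderm, had 303, 313 and 295 CPM in day 6 libraries, against 11.5, 10.4 and 10.5 CPM in day 2 libraries. That is a 28.1-fold increase (log2 fold change 4.81 ± 0.07 SE, edgeR quasi-likelihood test with Benjamini-Hochberg adjustment, adjusted p = 7.16e-38), and every day 6 library lay above every day 2 library. Tcf21, a basic helix-loop-helix factor of epicardium and of the mesenchyme of kidney and lung, had 51.5, 53.9 and 57.6 CPM at day 6, against 0.362, 0.505 and 0.399 CPM at day 2. Its log2 fold change was 6.99 ± 0.15 (edgeR adjusted p = 7.68e-31), again with no overlap between the days. Col4a1, which encodes a chain of the type IV collagen of basement membranes, had 4434, 4495 and 4430.1 CPM at day 6, against 348, 333 and 345 CPM at day 2. The increase was 13-fold (3.70 ± 0.05, edgeR adjusted p = 4.91e-38). Tpbpa, a small secreted protein of the spongiotrophoblast of the placenta, had 105, 91.6 and 98.0 CPM at day 6 and 0 counts in all 3 day 2 libraries. Set against a floor of 3 counts per library at day 2, it was at least 678-fold higher at day 6 (edgeR adjusted p = 1.32e-30). At day 0, before retinoic acid, the means were 0.705 CPM for Gata6 and 156 CPM for Col4a1, while Tcf21 and Tpbpa had no counts.

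**Figure D1:**
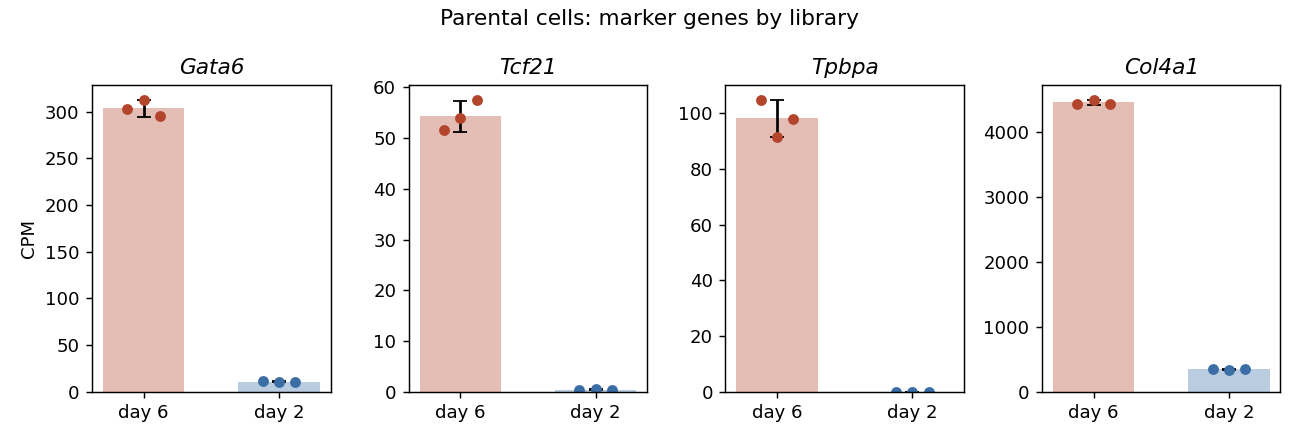
CPM of Gata6, Tcf21, Tpbpa and Col4a1 in the 3 parental libraries of day 6 (left in each panel) and the 3 of day 2 (right). Points are libraries, bars are means and error bars are the SD (n = 3). Each gene is higher in every day 6 library, and Tpbpa is at 0 in every day 2 library.

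The promoters of 3 of these markers and of Ecm1, the gene among the 12 largest increases with the highest day 6 CPM, are shown. Tpbpa is also among these 12, while Tcf21 and Col4a1 are shown as markers only. Each is the RefSeq window of 300 bases, 250 before and 50 after the annotated start (build GRCm38.p6), 5′ to 3′ on the strand of the gene. The windows are chr13:60941887-60942186 (minus strand) for Tpbpa, chr10:22820094-22820393 (minus) for Tcf21, chr8:11312777-11313076 (minus) for Col4a1 and chr3:95739520-95739819 (minus) for Ecm1. No window is shown for Gata6. Capitals mark matches, on either strand, to 6 motifs. These were the zinc finger motif AGATAA of Gata factors, the E-box CAGCTG, the octamer ATGCAAAT, the core promoter box TATAAA, the box GGGCGG bound by Sp factors, and CATTCC of Tead factors.
Tpbpa: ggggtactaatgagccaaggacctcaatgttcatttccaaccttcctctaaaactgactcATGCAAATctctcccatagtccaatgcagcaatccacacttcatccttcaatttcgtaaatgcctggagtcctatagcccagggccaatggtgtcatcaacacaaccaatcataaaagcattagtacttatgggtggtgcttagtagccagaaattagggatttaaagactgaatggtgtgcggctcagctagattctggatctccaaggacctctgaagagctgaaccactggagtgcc
Tcf21: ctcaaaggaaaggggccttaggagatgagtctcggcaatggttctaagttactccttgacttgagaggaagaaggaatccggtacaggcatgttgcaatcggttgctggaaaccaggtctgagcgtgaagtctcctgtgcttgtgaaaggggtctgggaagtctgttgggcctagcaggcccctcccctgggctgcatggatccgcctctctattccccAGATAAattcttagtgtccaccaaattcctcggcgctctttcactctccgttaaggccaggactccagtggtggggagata
Col4a1: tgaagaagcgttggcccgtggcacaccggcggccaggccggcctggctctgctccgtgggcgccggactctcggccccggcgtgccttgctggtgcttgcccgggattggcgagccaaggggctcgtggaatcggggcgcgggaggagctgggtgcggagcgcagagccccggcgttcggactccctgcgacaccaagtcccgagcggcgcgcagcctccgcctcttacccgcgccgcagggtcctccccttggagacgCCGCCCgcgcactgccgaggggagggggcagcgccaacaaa
Ecm1: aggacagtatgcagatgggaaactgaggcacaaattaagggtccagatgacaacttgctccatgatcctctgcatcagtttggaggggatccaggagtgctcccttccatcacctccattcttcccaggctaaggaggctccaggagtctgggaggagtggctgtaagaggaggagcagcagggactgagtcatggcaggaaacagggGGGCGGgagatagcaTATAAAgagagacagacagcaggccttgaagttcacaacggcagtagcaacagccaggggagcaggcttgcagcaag

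The Tpbpa window held 1 octamer, which starts 190 bases before the start site, and the window of its paralogue Tpbpb held 1 at 191 bases before its own. Of all 32851 RefSeq windows of this length, 1.74% hold that motif on either strand. No other window searched, among those of the 12 largest increases, Tcf21, Col4a1 and Col4a2, held an octamer. Tpbpb was named after its values were seen. Tcf21 held 1 AGATAA (found in 11.2% of all windows) 31 bases before its start, and Ecm1 held TATAAA (13.6%) at 27 bases before the start and GGGCGG (35.7%). The Col4a1 match is GGGCGG on the other strand, 10 bases into the transcript. Its neighbour Col4a2 is transcribed the other way, from a window that overlaps that of Col4a1 (chr8:11312555-11312854), and it moved with it: 2268, 2275 and 2279.7 CPM at day 6, against 201, 188 and 205 CPM at day 2 (log2 fold change 3.52 ± 0.05). These matches describe letters in the windows, and whether any factor binds there was not tested.

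Most of the transcriptome changed at this step. Of 18352 genes tested, 7826 were higher at day 6 (42.6% of genes tested) and 6777 were lower (36.9%) at an edgeR adjusted p under 0.05. Which direction had more calls turned with the settings: DESeq2 gave 7274 higher and 7776 lower, and library sizes alone 6469 and 8141. With a fold of at least 2 added, 3273 were higher (17.8%) and 3621 were lower (19.7%). The 3 day 6 libraries lay wholly above the 3 day 2 libraries for 8024 genes (43.7%) and wholly below for 7027 (38.3%). The median log2 fold change over all genes was 0.06. Large decreases outnumbered large increases, with 999 genes at least 16-fold lower and 465 at least 16-fold higher. In 107 tested genes no day 2 library had a count, and 58 of them reached a mean of 1 CPM at day 6. The reverse, no count at day 6, held for 373 tested genes, of which 113 had a mean of at least 1 CPM at day 2. Each gene list below is given with its counts at the 2-fold rule and its median, to be read against 17.8% higher, 19.7% lower and a median of 0.06.

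**Figure D2:**
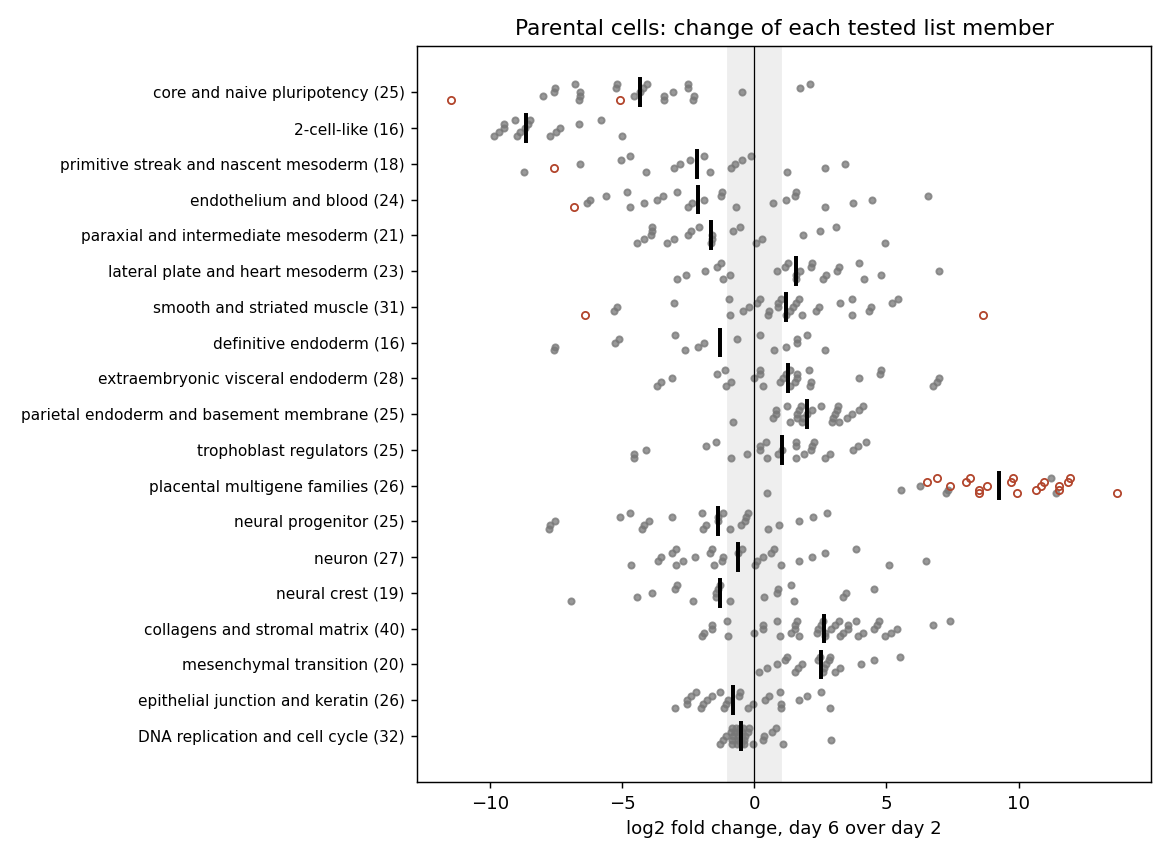
Log2 fold change (day 6 over day 2) of every tested member of 19 gene lists, with the number of members in brackets, the list median as a black bar and changes under 2-fold shaded. Open red points are genes with 0 counts in one of the groups, whose fitted value depends on a small prior count. The medians of pluripotency and 2-cell-like genes lie left of 0, and those of matrix, basement membrane, mesenchymal and placental genes lie right of it.

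Genes of core and naive pluripotency fell further. Of 25 tested, 22 were at least 2-fold lower and 2 at least 2-fold higher, with a median log2 fold change of -4.31. Pou5f1, which encodes Oct4, had 0.149, 0.467 and 0.470 CPM at day 6, against 98.3, 89.3 and 91.9 CPM at day 2 (log2 fold change -7.99 ± 0.15, edgeR adjusted p = 1.74e-26). Nanog, its partner in the network, had 1.69, 1.35 and 0.992 CPM at day 6, against 25.2, 22.5 and 21.1 CPM at day 2. Both had fallen before: at day 0 Pou5f1 averaged 893 CPM and Nanog 990.0 CPM. The cells are labelled ESCs at every day, and by day 6 their defining transcripts were close to 0 in every library. Sox2 fell by 7.55 and Dppa5a, a gene of early embryo and germ cells, by 7.58 on the log2 scale. Gdf3, a TGF-beta family ligand made by pluripotent cells, had no count at day 6, against 20.8, 19.4 and 22.5 CPM at day 2, and was at least 136-fold lower. The exceptions were Klf4, with 31.9, 31.6 and 28.2 CPM at day 6 against 7.78, 7.58 and 6.03 CPM at day 2, and Tbx3, which rose by 1.74 ± 0.06. At day 0, Klf4 and Tbx3 had averaged 333 and 288 CPM, above their day 6 means of 30.6 and 69.8 CPM. Both are also used outside pluripotent cells.

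Some pluripotency genes had been higher at day 2 than at day 0, and fell only at this later step. Dppa2, a chromatin factor of pluripotent cells, averaged 90.6, 240.4 and 2.39 CPM at days 0, 2 and 6. Lin28a, an RNA-binding protein that blocks let-7 maturation, averaged 72.6, 377 and 35 CPM over the same days. Dnmt3l, the catalytically inactive cofactor of the de novo DNA methyltransferases, had 1.59, 1.56 and 2.25 CPM at day 6, against 345, 379 and 370.1 CPM at day 2. It fell by 7.66 ± 0.09 on the log2 scale (edgeR adjusted p = 7.07e-40). Dnmt3b fell by 2.75, whereas Dnmt3a rose by 0.40 and the demethylase Tet3 by 1.59. Among 14 formative and primed genes, 9 were at least 2-fold lower, among them Sox3 (-7.74), and 1 was higher, with a median of -1.94.

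The hairpin genes of the miR-290 cluster, the main microRNA cluster of mouse ESCs, were also lower at day 6. All 7 that were tested were called lower (edgeR adjusted p from 2.73e-09 to 0.0415), against 36.9% of all genes tested. For Mir290a and Mir291a, the libraries of day 6 and day 2 overlapped. All 7 genes were picked after their values were seen. Their counts were small: 1 to 3 summed over the 3 day 6 libraries and 9 to 64 over the 3 day 2 libraries, against 142 to 720 over the day 0 libraries. These are reads of a long RNA library over the hairpin and say nothing of mature microRNA levels. Of the mature strands of this cluster, 3 are shown that have one seed in common, the bases that pair with target RNAs (capitals, bases 2 to 8; RefSeq, GRCm38.p6, chromosome 7).
mmu-miR-291a-3p: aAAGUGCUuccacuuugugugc
mmu-miR-294-3p: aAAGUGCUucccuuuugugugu
mmu-miR-295-3p: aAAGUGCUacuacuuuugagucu
Mir351 moved the other way, with 3.43, 3.48 and 3.71 CPM at day 6 and 0, 0.101 and 0.199 CPM at day 2 (log2 fold change 5.09 ± 0.36, edgeR adjusted p = 2.87e-15), and no day 2 library came near the day 6 values.

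Genes of the 2-cell-like state, in which a few cells of an ESC culture express genes of the early cleavage embryo, were all at least 2-fold lower at day 6: 16 of 16 tested, with a median of -8.64. Zscan4d, a telomere factor of that state, had 0, 0.156 and 0.104 CPM at day 6, against 95.6, 82.6 and 80.8 CPM at day 2. Zfp352 had 0.249, 0.208 and 0.157 CPM at day 6, against 12.7, 11.2 and 11.6 CPM at day 2. All 16 also had a higher mean at day 2 than at day 0, where Zscan4d averaged 6.29 CPM. Members of the Zscan4, Usp17 and Tcstv families are near copies that can share reads, so their single levels are uncertain. Of 111 unprocessed pseudogenes tested, 73 were at least 2-fold lower and 4 higher, with a median of -2.38.

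The nodal pathway, which maintains the epiblast and patterns the early embryo, is described here by its ligand, inhibitors and co-receptor, which were all lower at day 6. Nodal, the ligand, had 0.249, 0.208 and 0.418 CPM at day 6, against 129, 117 and 125 CPM at day 2 (log2 fold change -8.70 ± 0.14, edgeR adjusted p = 1.13e-33). Lefty1, a secreted nodal inhibitor and nodal target, had 1.04, 1.09 and 1.20 CPM at day 6, against 499, 457 and 494 CPM at day 2, a 432-fold decrease. Lefty2 fell by 9.38 and the co-receptor Tdgf1 by 3.41 on the log2 scale. Primitive streak genes, a list that includes Nodal, were mostly lower at day 6: 11 of 18 were at least 2-fold lower and 3 higher, with a median of -2.17. Eomes, a T-box factor of the streak, had 0.995, 0.675 and 0.992 CPM at day 6, against 14.4, 15.7 and 15.9 CPM at day 2. T, the classical streak marker, was under 1 CPM in every library of both days. The higher members were Cdx2 (2.66 ± 0.26), Snai1 (1.22 ± 0.09) and Evx1, which had 3 counts in all at day 2.

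**Figure D3:**
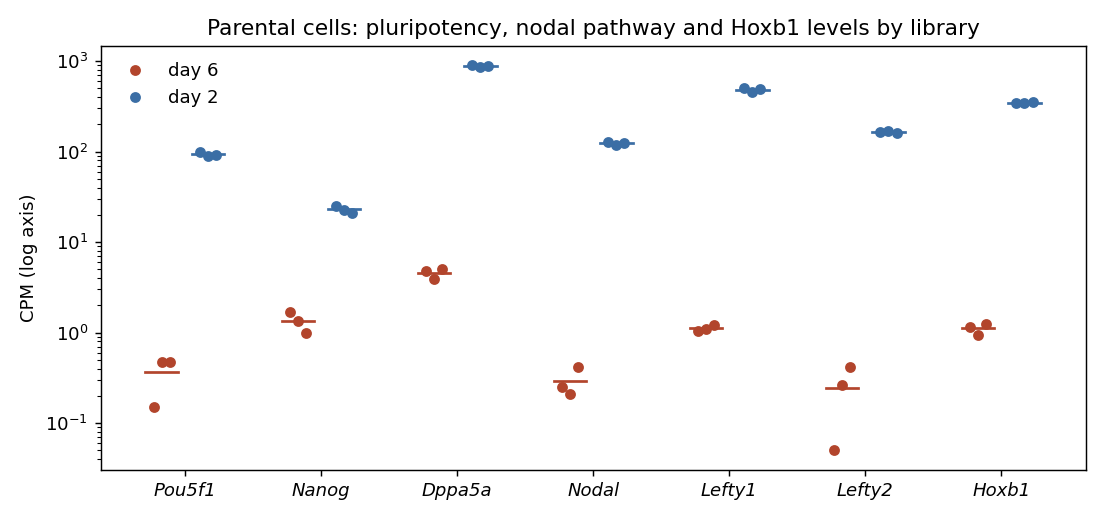
CPM on a log axis for 7 genes that fell, with day 6 (red) left of day 2 (blue). Points are libraries and lines are the means of 3 libraries. Every day 6 value lies more than an order of magnitude under every day 2 value of its gene.

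Other TGF-beta family ligands and receptors were higher. Of 28 ligands, receptors and binding proteins tested, 15 were at least 2-fold higher and 2 lower (Nodal and Tdgf1), with a median of 1.50. Tgfb2 had 136, 143 and 136 CPM at day 6, against 2.31, 1.46 and 1.05 CPM at day 2 (log2 fold change 6.40 ± 0.13, edgeR adjusted p = 5.02e-25). Bmp5 had 15.8, 19.5 and 18.3 CPM at day 6, against 0.136, 0.101 and 0.0997 CPM at day 2. Tgfb3 rose by 4.68, the receptor Tgfbr2 by 3.48 and the latent binding protein Ltbp1 by 3.15. Of 28 Smad factors and targets, 13 were at least 2-fold higher and 6 lower, with a median of 0.72. Among Smad genes, which carry these signals to the nucleus, Smad9 rose most (3.07 ± 0.13) and Smad3 rose by 1.73 ± 0.06. Smad2 was 0.15 ± 0.05 higher, a call that was lost when any one library was left out and that turned to -0.03 with library sizes alone. Tgfbi, an extracellular TGF-beta target, had 511, 543 and 536 CPM at day 6, against 8.05, 6.97 and 6.28 CPM at day 2. Id3 and Id1, targets of BMP signals, rose by 3.13 and 1.96, while the Smad co-repressors Ski and Skil fell by 1.51 and 1.37.

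Wnt genes changed in kind as well as level. Of 36 tested, 17 were at least 2-fold higher and 7 lower, with a median of 0.80. The ligands of the streak, Wnt8a and Wnt3a, were lower at day 6 (-5.23 ± 0.27 and -4.72 ± 0.47). Wnt2b, a ligand of mesothelium and mesenchyme, had 70.1, 68.4 and 83.6 CPM at day 6, against 0.859, 0.455 and 0.797 CPM at day 2 (6.69 ± 0.13). Wnt4, a ligand of kidney and gonad development, had 237, 226 and 245 CPM at day 6, against 2.67, 2.68 and 3.04 CPM at day 2. Wnt5a, which signals without beta-catenin, rose by 5.53 and the secreted antagonist Sfrp1 by 3.74. Axin2, a general target of beta-catenin, rose by 1.20 ± 0.06, and Sp5, another target, did not pass the test (-0.11 ± 0.19).

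Fgf genes split about evenly, with 9 of 29 at least 2-fold higher, 7 lower and a median of 0.17, which became -0.01 when library sizes were used with no scaling factor. Fgf4, the ligand of pluripotent cells, had 0, 0.156 and 0 CPM at day 6, against 6.19, 5.51 and 5.18 CPM at day 2. Fgf9, a ligand of mesothelium and epithelium, rose by 3.90 ± 0.32. Dusp6, a phosphatase induced by ERK signals, fell by 2.05, whereas Spry1, Spry2 and Egr1, also induced by ERK, rose by 1.89, 1.43 and 2.39.

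Mesoderm genes divided by kind. Among 21 genes of paraxial and intermediate mesoderm, the tissues of somites and kidney, 13 were at least 2-fold lower and 4 higher, with a median of -1.65. Meox1, a homeobox factor of somites, had 1.84, 2.44 and 2.92 CPM at day 6, against 18.1, 20.8 and 20 CPM at day 2. Dll1, the Notch ligand of the segmenting mesoderm, fell by 4.17 and Pax3 by 3.87. The 4 that rose were Osr1, Wt1, Foxc2 and Tbx18. Wt1, a factor of kidney, gonad and mesothelium, had 475, 487 and 479 CPM at day 6, against 57.3, 57.9 and 54.7 CPM at day 2 (3.08 ± 0.07, edgeR adjusted p = 1.89e-23). Osr1, an early factor of intermediate mesoderm, had 7.91, 8.46 and 9.35 CPM at day 6, against 0.0904, 0.303 and 0.448 CPM at day 2.

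Genes of lateral plate and heart mesoderm were more often higher. Of 23 tested, 15 were at least 2-fold higher and 6 lower, with a median of 1.59. Beside Tcf21 and Gata6, Tbx2 had 155, 149 and 148 CPM at day 6, against 8.68, 8.94 and 7.72 CPM at day 2 (4.16 ± 0.08). Hand2, a factor of heart and limb, had 18.2, 21.3 and 18.6 CPM at day 6, against 1.54, 1.26 and 0.897 CPM at day 2. Gata4 rose by 2.13 and Hand1 by 1.59. Mef2c, a muscle and heart factor, and Smarcd3, a chromatin remodelling subunit of the heart, rose by 3.12 and 3.20. Other heart factors were lower: Nkx2-5 fell by 1.40 ± 0.19, Isl1 by 1.17 ± 0.30 and Tbx20 by 1.88 ± 0.20, all with values under 5 CPM in every library.

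Muscle genes were more often higher. Of 31 tested, 16 were at least 2-fold higher and 4 lower, with a median of 1.21. Smooth muscle genes were among the largest increases: Acta2, smooth muscle actin, had 630.5, 522 and 455 CPM at day 6, against 15.9, 15.7 and 12.1 CPM at day 2 (5.20 ± 0.20, edgeR adjusted p = 1.67e-11). Tagln, an actin-binding protein of smooth muscle, had 374, 335 and 278 CPM at day 6, against 22.9, 28.4 and 24.4 CPM at day 2. Myh11, the smooth muscle myosin heavy chain, rose by 4.4 and Actg2 by 5.45. Acta2, Tagln, Myh11 and Actg2 had day 0 means of 139, 83.8, 2.13 and 9.79 CPM. Their day 2 means were lower, at 14.6, 25.2, 1.48 and 0.617 CPM. These genes varied together among the day 6 libraries, with replicate 1 highest and replicate 3 lowest for Acta2, Tagln, Myh11 and Actg2, a spread far smaller than the step. Heart and striated muscle genes were mixed. Tnni1, the slow skeletal troponin I, had 13.5, 10.8 and 10.5 CPM at day 6, against 0.407, 0.606 and 0.698 CPM at day 2 (4.35 ± 0.19). Myh6, a cardiac myosin heavy chain, had 0.0995, 0.311 and 0.104 CPM at day 6, against 6.51, 5.10 and 7.72 CPM at day 2, Actn2 fell by 3.04, and Myl2 had no count at day 6. Nppa, the atrial natriuretic peptide, had 3.28, 3.32 and 2.09 CPM at day 6 and no count at day 2.

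Endothelial and blood genes were mixed. Of 24 tested, 7 were at least 2-fold higher and 15 lower, with a median of -2.14. Kdr, the main VEGF receptor, had 211, 225 and 241 CPM at day 6, against 10.4, 11.1 and 9.27 CPM at day 2 (4.46 ± 0.07, edgeR adjusted p = 1.21e-36). Cdh5, the cadherin of vessel walls, had 97.3, 89.9 and 83.6 CPM at day 6, against 0.769, 1.06 and 0.997 CPM at day 2. Gata2 rose by 3.75 and Flt1, a decoy VEGF receptor, by 2.67. Esam, an endothelial adhesion molecule, rose by 1.59, and Sox7 and Sox17, factors of endothelium and endoderm, by 1.54 and 1.18. Others of the list were lower. Pecam1 had 5.97, 4.98 and 5.74 CPM at day 6, against 31.8, 29.5 and 25 CPM at day 2, and Tie1, Tal1 and Lmo2 fell by 5.61, 4.16 and 4.69. Erg was at 0.209 CPM or under in every day 6 library, and Cldn5 and Etv2 had 1 count each over the 3.

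Matrix genes gave some of the highest levels at day 6. Of 40 collagen and stromal matrix genes tested, 29 were at least 2-fold higher and 6 lower, with a median of 2.64. Col3a1, a fibrillar collagen, had 1103, 1097 and 1211 CPM at day 6, against 6.42, 7.93 and 5.58 CPM at day 2 (7.42 ± 0.11, edgeR adjusted p = 8.65e-24). Col1a1, the main collagen of connective tissue, had 2109, 1941 and 2064 CPM at day 6, against 58.2, 55.0 and 56.8 CPM at day 2. At day 0, Col3a1 and Col1a1 had averaged 74.5 and 540.2 CPM, above day 2 and below day 6. Decorin (Dcn), a small proteoglycan, rose by 6.76, and the 3 tested chains of collagen VI (Col6a1, Col6a2 and Col6a3) by 5.40, 4.96 and 4.52. Col18a1, a collagen of basement membranes, went the other way, with 366, 361 and 406 CPM at day 6 and 1492, 1335 and 1460.3 CPM at day 2. The YAP and TEAD targets Ccn1 and Ccn2 fell by 1.01 and 1.04.

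A list of 17 fibroblast genes, kept as a check for feeder cells, overlaps the matrix list and gave 10 at least 2-fold higher and 2 lower, with a median of 1.53. Pdgfra had 334, 347 and 347 CPM at day 6, against 22.9, 19.6 and 16.2 CPM at day 2. Col3a1, Dcn, Col1a1, Postn and Lum, also of this list, rose by 7.42, 6.76, 5.17, 3.91 and 3.83. Cd34 and Mfap5 fell by 3.12 and 1.59, Thy1 fell by 0.95 ± 0.18 and Pdgfrb did not pass the test. S100a4 was under 1 CPM in every library of day 6 and day 2, after a mean of 5.89 CPM at day 0. The labels do not say whether feeder cells were present, and their part in these values was not tested. Of the same list, Fap, a fibroblast surface protease, reached only 0.995, 1.45 and 1.04 CPM at day 6, against 0.317, 0.253 and 0.149 CPM at day 2. Pdgfrb, S100a4 and Fap were named after their values were seen.

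Genes of the mesenchymal transition rose together and many junction genes fell. Of 20 mesenchymal genes tested, 17 were at least 2-fold higher and none lower, with a median of 2.53. Cdh11, a mesenchymal cadherin, had 186, 196 and 193 CPM at day 6, against 4.02, 3.99 and 4.53 CPM at day 2. Snai2, a repressor of Cdh1, rose by 4.52, Zeb1 by 2.42 and Twist1 by 2.58. Cdh2, the cadherin of mesenchyme and neural tissue, had 169, 169.7 and 159.7 CPM at day 6, against 26.6, 28.7 and 24.9 CPM at day 2. Cdh1, the epithelial cadherin, had 39.2, 45.5 and 42.5 CPM at day 6, against 357, 346 and 329.6 CPM at day 2 (-3.02 ± 0.05, edgeR adjusted p = 1.23e-34). Of 26 epithelial junction and keratin genes, 12 were at least 2-fold lower and 5 higher, with a median of -0.80. Those that rose were Krt7, Krt8, Krt18, Krt19 and Esrp2. The keratins are cytoskeletal proteins of simple epithelium, trophoblast and mesothelium, and Krt8 had 394, 430 and 423 CPM at day 6, against 71.9, 72.3 and 70.9 CPM at day 2.

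The basement membrane list was the most uniform among endoderm genes. Of 25 genes of parietal endoderm and basement membrane, 21 were at least 2-fold higher and none lower, with a median of 2. The laminin chain Lama1 had 1488, 1436 and 1394 CPM at day 6, against 178, 155 and 158 CPM at day 2 (3.14 ± 0.07). Sparc, a collagen-binding matrix protein of parietal endoderm and many mesenchymal cells, had 4461, 4552 and 4448 CPM at day 6, against 564, 533 and 523 CPM at day 2. Plat, a plasminogen activator, rose by 3.18 and Pth1r, the parathyroid hormone receptor of parietal endoderm, by 3.19. Lama5, another laminin chain, fell by 0.80 ± 0.07 and was the only member called lower.

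Visceral endoderm genes were mixed. Of 28 tested, 16 were at least 2-fold higher and 6 lower, with a median of 1.26. Apoa1, an apolipoprotein of yolk sac and liver, had 30.6, 32.2 and 28.1 CPM at day 6, against 0.181, 0.455 and 0.0997 CPM at day 2 (6.93 ± 0.17). Afp, alpha-fetoprotein, had 10.7, 11.1 and 11.5 CPM at day 6, against 0.497, 0.253 and 0.448 CPM at day 2. Rbp4, the retinol carrier, rose by 3.97, and Foxa2, a member of both endoderm lists, by 1.61. Apoe had 35.6, 41.6 and 43.1 CPM at day 6, against 538, 489 and 506 CPM at day 2, and Amn, the membrane anchor of a visceral endoderm uptake receptor, fell by 3.55. Hnf4a, the master factor of visceral endoderm, did not pass the test and lay between 2.17 and 3.37 CPM in all 6 libraries. Definitive endoderm genes were more often lower, with 8 of 16 at least 2-fold lower, 5 higher and a median of -1.29. Pyy, a gut hormone, fell by 5.27 and Foxa1 by 2.64, while Sox17, used by both endoderm types, rose by 1.18 ± 0.12.

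Trophoblast genes were higher in several families. Of 25 regulators, 13 were at least 2-fold higher and 5 lower, with a median of 1.04. Gata2, Gata3 and Krt7 rose by 3.75, 2.26 and 2.87. Syna, a retroviral envelope protein that fuses trophoblast cells, had 16.7, 18.7 and 20.3 CPM at day 6, against 1.13, 0.960 and 0.897 CPM at day 2. Plac1, a placental surface protein, rose by 3.94. Factors of the trophoblast stem cell did not move as one: Cdx2 had 4.18, 2.39 and 3.03 CPM at day 6, against 0.407, 0.556 and 0.548 CPM at day 2, Eomes and Esrrb fell by 4.10 and 4.55, and Elf5 had 0.498, 1.14 and 0.366 CPM at day 6, against 0.226, 0.101 and 0.0997 CPM at day 2, a call lost without day 6 replicate 2. Gcm1, the factor of labyrinth trophoblast, fell by 4.56 ± 0.44.

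Placental gene families that encode hormones, proteases and adhesion molecules had few or no counts at day 2 and were mostly higher at day 6. Of 48 listed members 26 were tested, and 25 of these were higher at day 6, of which 19 had no count in any day 2 library. A gene can only pass the count filter through a group where it is high, so this count is a description and no support for the direction. Summed over the tested list, the level was 366 to 473 CPM at day 6 and 0.299 to 0.452 CPM at day 2, with replicate 1 the highest of day 6. The median log2 fold change was 9.27 as fitted and 5.93 with the genes at 0 set to their lower bound. Psg29, a pregnancy-specific glycoprotein, had 36.3, 24.1 and 24.2 CPM at day 6 and was at least 194-fold higher. Prl2c5 and Prl7d1, members of the prolactin family, were at least 187-fold and 147-fold higher. Prl3d1, which encodes placental lactogen I of trophoblast giant cells, had 1.94, 2.18 and 1.46 CPM at day 6 and no count at day 2. Ctsj, a placental cathepsin, had 79.2, 59.8 and 54.5 CPM at day 6 and 1 count at day 2. Members of these clusters resemble each other and may share reads, so the level of one member is uncertain. Replicate 1 of day 6 had the highest value for Psg29, Prl2c5, Prl7d1 and Ctsj.

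Neural genes were mostly lower, with a small set of neuronal genes far higher. Of 25 neural progenitor genes, 15 were at least 2-fold lower and 3 higher, with a median of -1.39. Sox1, the first factor of the neural plate, had 1 count at day 6, against 5.38, 4.95 and 5.48 CPM at day 2, and Gbx2 fell by 4.25. Pax6, which patterns brain and eye, had 5.03, 6.49 and 5.90 CPM at day 6, against 11.7, 14.7 and 13.4 CPM at day 2. Nes, an intermediate filament of progenitors and of muscle and vessel cells, rose by 1.68. Of 27 neuronal genes, 7 were at least 2-fold higher and 13 lower, with a median of -0.63. Dcx, a microtubule protein of migrating neurons, had 105, 106 and 102 CPM at day 6, against 0.904, 1.41 and 1.15 CPM at day 2 (6.50 ± 0.13, edgeR adjusted p = 4.28e-31). Nefm, a neurofilament, had 457, 414 and 366 CPM at day 6, against 12.5, 11.6 and 11.7 CPM at day 2, and Nefl rose by 3.86. Syt1, Stmn4 and Stmn2, also of the neuronal list, rose by 2.68, 2.17 and 1.70. In the same libraries the pan-neuronal genes Elavl3 and Elavl4 fell by 2.97 and 2.25, Mapt fell by 2.97, and Map2 did not pass the test. Elavl4, Map2 and Tubb3 were named after their values were seen. Tubb3 was 0.33 ± 0.13 higher, a call that was lost in 5 of the 6 fits that left out a library. Neural crest genes gave 5 of 19 at least 2-fold higher and 10 lower, with a median of -1.31. Sox10, the defining factor of migrating crest, had 0.0498, 0.208 and 0.0522 CPM at day 6, against 13.6, 14.1 and 12.8 CPM at day 2.

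Retinoic acid response genes stayed on in part. Of 22 tested, 10 were at least 2-fold higher and 3 lower, with a median of 0.90. Stra8, a direct target best known from germ cells entering meiosis, had 3.33, 3.89 and 3.29 CPM at day 6, against 479, 507 and 471 CPM at day 2 (-7.11 ± 0.09, edgeR adjusted p = 6.37e-37). Crabp2, which carries retinoic acid to its receptors, fell by 4.33 and Cdx1 by 6.58. Rarb, a receptor gene induced by its own ligand, had 150.2, 150.2 and 146 CPM at day 6, against 14.5, 18.7 and 14.9 CPM at day 2. Aldh1a2, which makes retinoic acid, rose by 4.79 and Dhrs3, which reduces its precursor, by 2.13. Of the enzymes that degrade it, Cyp26b1 had 474, 470.2 and 480.1 CPM at day 6, against 107, 122 and 120.2 CPM at day 2, while Cyp26a1 fell by 0.29 ± 0.05.

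Hox genes, which give cells their position along the body axis, are given here by cluster. Their calls at any size are to be read against 42.6% higher and 36.9% lower of all genes tested. None of the 7 HoxD genes tested rose and 6 fell, 4 of them at least 2-fold, with a median of -2.40. In HoxB, 9 of 10 fell, 8 at least 2-fold, with a median of -2.19. In HoxC, 6 of 8 rose, 5 at least 2-fold, with a median of 2.51, and in HoxA 6 of 10 rose, all at least 2-fold, with a median of 1.16. Hoxb1 had 1.14, 0.934 and 1.25 CPM at day 6, against 341, 345 and 352 CPM at day 2 (-8.27 ± 0.09, edgeR adjusted p = 2.06e-39). Hoxb8 had 10, 10.2 and 7.10 CPM at day 6, against 66.2, 68.2 and 66.3 CPM at day 2. Its paralogue Hoxc8 had 65.4, 64.2 and 63.5 CPM at day 6, against 3.75, 4.19 and 4.48 CPM at day 2 (3.96 ± 0.09, edgeR adjusted p = 1.97e-31). Hoxa5, Hoxc5 and Hoxc6 rose by 1.69, 2.88 and 3.19, while Hoxb5 and Hoxb6 fell by 2.18 and 3.79. Hoxb3 was the one HoxB gene that rose (0.39 ± 0.06). Genes within a cluster lie next to each other and can overlap, and reads from antisense transcripts there cannot be told apart without strand.

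**Figure D4:**
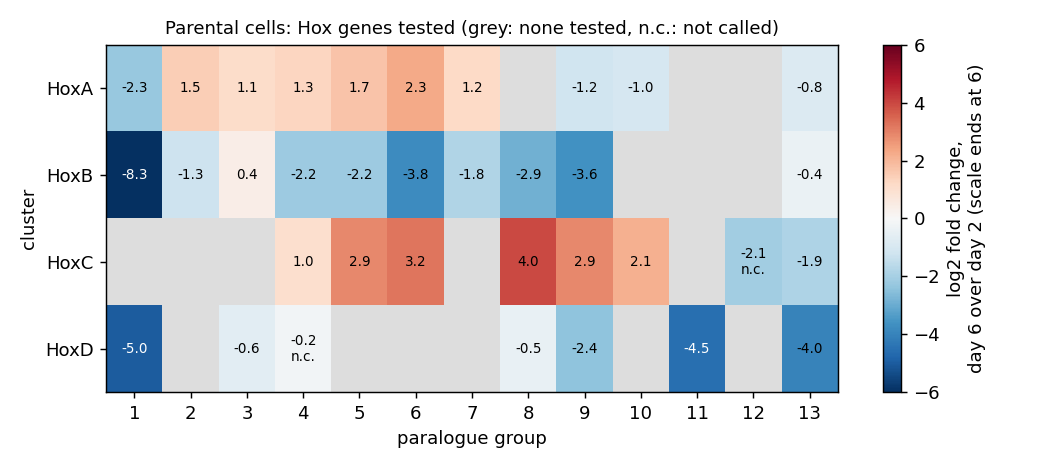
Log2 fold change (day 6 over day 2) of each tested Hox gene, by cluster (rows) and paralogue group (columns), with the value in each cell. Grey cells have no tested gene and n.c. marks genes that did not pass the test. Rows HoxB and HoxD are mostly blue (lower at day 6) and rows HoxA and HoxC are red in groups 2 to 7 and 4 to 10.

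Cell cycle genes were mostly lower by small amounts. Of 32 tested, 25 were called lower and 6 higher at any size, against 36.9% lower and 42.6% higher of all genes tested. By the 2-fold rule 3 were lower and 2 higher, with a median of -0.50. Ccne1, the cyclin of entry into DNA synthesis, had 53.4, 47.8 and 45.2 CPM at day 6, against 122, 122 and 117 CPM at day 2. Mycn, a growth regulator of embryonic tissue, was the largest increase at 2.91 ± 0.06. Of 25 cell cycle inhibitors and p53 targets, 6 were at least 2-fold higher and 3 lower, with a median of 0.25. Inhibitors of cyclin-dependent kinases rose, with Cdkn2b, Cdkn2a, Cdkn1c, Cdkn1b and Cdkn1a up by 1.30, 1.25, 1.03, 1.02 and 0.76. Cdkn1a was named after its values were seen. Other members of that list went both ways: Phlda3 and Fas rose by 1.31 and 1.16, while Pmaip1, Gadd45a and Trp53inp1 fell by 1.25, 1.12 and 1.04. Of 23 glycolysis genes, 6 were at least 2-fold lower and 2 higher, with a median of -0.41. At any size 17 were called lower, against 36.9% of all genes tested. The glucose transporter Slc2a3 had 267, 281 and 277 CPM at day 6, against 2534, 2639 and 2567 CPM at day 2 (-3.23 ± 0.05, edgeR adjusted p = 3.27e-37), and Slc2a1 fell by 1.83. For oxidative phosphorylation the median was -0.09 and only Cox7a1, a muscle isoform, changed at least 2-fold. Of 28 genes there, 8 were called higher and 11 lower, against 42.6% and 36.9% of all genes tested. With library sizes alone 2 were higher and 18 lower.

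Imprinted genes are expressed from one parental copy, and many of them are abundant in placenta and mesoderm. Summed over the tested list, their level was 27170 to 28640 CPM at day 6 and 12780 to 13680 CPM at day 2. Most of that gain lay in H19 and in Peg3, which averaged 7413 CPM at day 6 and 1766 CPM at day 2. Of 29 tested, 16 were at least 2-fold higher and 6 lower, with a median of 1.03. H19, a long noncoding RNA, had 11431, 11438 and 10653 CPM at day 6, against 2305, 2470.5 and 2413 CPM at day 2 (2.22 ± 0.05, edgeR adjusted p = 7.97e-31). It held 1.12% to 1.19% of all counts at day 6 and 0.273% to 0.290% at day 2, and 0.00656% to 0.00668% at day 0. Peg3, a zinc finger protein, rose by 2.07, the growth regulator Plagl1 by 3.11 and Dlk1, a Notch-like ligand, by 2.85. Peg10, a placental gene of retroviral origin, had 3022, 3043 and 2939 CPM at day 6, against 5251, 5809.9 and 5669 CPM at day 2. Phlda2, which restrains placental growth, fell by 4.15 and Grb10 by 1.90. Allele-specific reads were not analysed here.

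Genes of antigen presentation and interferon response were more often lower, with 14 of 26 at least 2-fold lower and 2 higher and a median of -1.05. H2-K1, a class I molecule, had 63.7, 61.4 and 61.1 CPM at day 6, against 657, 623 and 655 CPM at day 2. The immunoproteasome genes Psmb8 and Psmb9 fell by 2.71 and 2.83, whereas B2m, the light chain of class I molecules, rose by 1.14 ± 0.05. At day 0, H2-K1, Psmb8 and Psmb9 had averaged 51.4, 0.354 and 0.802 CPM. Their day 2 means were higher, at 645, 22.4 and 9.54 CPM, while B2m averaged 37.5 CPM at day 0 and 42.9 CPM at day 2. Among replication-dependent histones, 16 of 25 were at least 2-fold lower and 2 higher, with a median of -1.91, although their summed level was 74.5 to 83.3 CPM at day 6 and 60.6 to 65.1 CPM at day 2. These transcripts lack a poly(A) tail and their genes are near copies, so their levels depend on library preparation and on how shared reads were counted.

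Among the 12 largest increases at a mean log2 CPM of at least 1 were several genes of no list, with known roles in growth factor binding, signalling and matrix. Ecm1, a secreted matrix protein, had 4783, 4858 and 4949 CPM at day 6, against 8.91, 7.37 and 8.07 CPM at day 2, a 597-fold increase (9.22 ± 0.13, edgeR adjusted p = 8.46e-22). Igfbp5, a binding protein of insulin-like growth factors, had 2793, 2964 and 3079 CPM at day 6, against 10.4, 8.43 and 11 CPM at day 2 (8.21 ± 0.07, edgeR adjusted p = 3.58e-44). Ptn, a heparin-binding growth factor, had 755, 813 and 754 CPM at day 6, against 2.08, 2.27 and 1.35 CPM at day 2. In all 3 genes, every day 6 library lay above every day 2 library. Epha3, an ephrin receptor, Tmem255a, a membrane protein, and Gucy1a1, a subunit of the nitric oxide receptor, rose by 9.33, 9.20 and 8.95. Tgm5, a transglutaminase, Serpinb9e, a protease inhibitor of the placenta, and Ceacam9, an adhesion molecule of the placental list, each had 1 count over the 3 day 2 libraries and means of 56.6, 70.6 and 56.7 CPM at day 6. Ifi203, an interferon-inducible gene, had 65.3, 66.3 and 67.2 CPM at day 6 and no count at day 2, at least 457-fold higher. Agtr2, an angiotensin receptor of fetal mesenchyme, and Serpinb9g were also at 0 at day 2 and at least 164-fold and 151-fold higher.

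Decreases in genes of no list included Csn3, Grifin, Fam25c and Gm6494. Csn3, a milk casein, had 0.0498, 0.156 and 0.104 CPM at day 6, against 80.9, 82.2 and 73.2 CPM at day 2 (-9.49 ± 0.16, edgeR adjusted p = 8.02e-36), and averaged 0.0208 CPM at day 0. Grifin, a lens galectin, had 1 count at day 6, against 48.3, 46.4 and 53.9 CPM at day 2, and 0.0808 CPM at day 0. Both genes thus had high levels at day 2 and next to none at day 0 and day 6. Fam25c had no count at day 6 and 18.4, 15.6 and 16.3 CPM at day 2, and was at least 109-fold lower. Gm6494, annotated as a processed pseudogene, was also at 0 at day 6 and at least 142-fold lower. By share of counts, which is not corrected for gene length, the 15 genes with the highest day 6 CPM were H19, Peg3, Eef1a1, mt-Co1, Ecm1, Sparc, Col4a1, Hsp90ab1, Peg10, Igfbp5, Eef2, Nedd4, Col4a2, P4hb and Col1a1. Of these, Eef1a1 and Eef2, elongation factors of translation, were lower at day 6 by 0.26 and 0.37, and the chaperone Hsp90ab1 by 0.25. Nedd4, a ubiquitin ligase, rose by 0.43 and P4hb, a subunit of the collagen hydroxylase, by 1.

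The same step was tested against that of cells labelled Oct1 cKO, as a difference between the changes of each line. Pou2f1, the targeted gene, had 64.9, 61.1 and 64.2 CPM in parental libraries at day 6 and 36, 45.3 and 44.5 CPM in Oct1 cKO libraries at day 6. At day 2 it had 105, 97.9 and 106 CPM in parental and 59.5, 60.8 and 58.8 CPM in Oct1 cKO libraries, so it was lower in every Oct1 cKO library but far from 0. Whole-gene counts cannot show whether the deleted part is gone. The difference of steps passed an edgeR adjusted p under 0.05 in 11657 of 18352 genes (63.5%). Dcx, 6.50 higher in parental cells, was not higher in Oct1 cKO, where it had 0.536, 1.39 and 0.381 CPM at day 6, against 1.65, 2.39 and 1.20 CPM at day 2 (difference 7.67 ± 0.39 on the log2 scale, edgeR adjusted p = 1.51e-18). Cdh1 fell in parental cells, while in Oct1 cKO it had 524, 486 and 541 CPM at day 6, against 475, 444 and 469 CPM at day 2 (difference -3.18 ± 0.07, edgeR adjusted p = 3.64e-30). Gata6 rose by 1.36 ± 0.07 in Oct1 cKO, to 71.3, 69.2 and 63.5 CPM at day 6 against 28.5, 24.5 and 26.6 CPM at day 2, which is less than in parental cells (difference 3.45 ± 0.10, edgeR adjusted p = 1.91e-27). Tcf21 had 6.49, 5.27 and 4.07 CPM in Oct1 cKO at day 6, against 0.0634, 0.233 and 0.267 CPM at day 2 (difference 2.23 ± 0.69, edgeR adjusted p = 0.00532).

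For Col4a1, the steps differed little (0.37 ± 0.07), although Oct1 cKO libraries were higher at both days, with 9087 to 9821 CPM at day 6 and 889 to 973 CPM at day 2. Tpbpa had 37.8, 37.3 and 34.4 CPM in Oct1 cKO at day 6 and no count at day 2. With no count at day 2 in either line, no difference of steps is given for it. Pou5f1 had 30.8, 31.6 and 30.4 CPM in Oct1 cKO at day 6, against 458, 423 and 435 CPM at day 2, a smaller fall than in parental cells (difference -4.17 ± 0.24, edgeR adjusted p = 9.73e-15). Hand1 rose more in Oct1 cKO, where it had 104, 88.7 and 86.5 CPM at day 6, against 3.99, 4.02 and 3.88 CPM at day 2 (difference -2.96 ± 0.17). Kdr was the one gene of the 15 that could be compared whose difference of steps missed the threshold (0.34 ± 0.27, edgeR adjusted p = 0.290), although its day 6 level was 12.4 to 13.1 CPM in Oct1 cKO. A missed threshold does not show that the steps were alike.

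**Figure D5:**
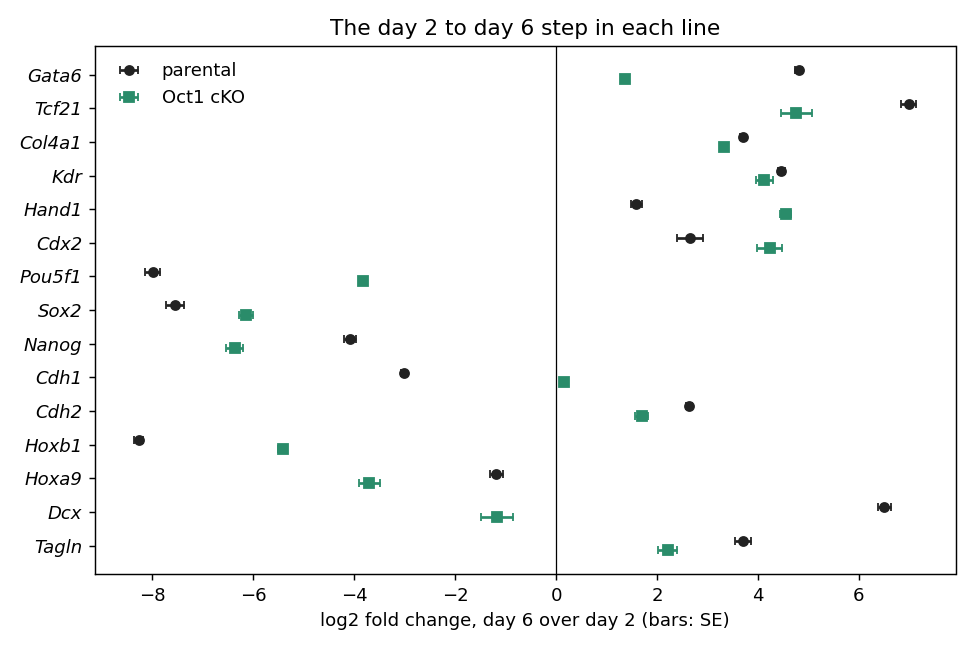
Log2 fold change from day 2 to day 6 (day 6 over day 2) for 15 genes in parental cells (black circles) and in cells labelled Oct1 cKO (green squares), with the SE of each (3 libraries per group). Cdh1 and Dcx lie on opposite sides of 0 in the 2 lines, and the 2 points of Kdr lie closest together.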

How the data were processed

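Bulk RNA-seq of 18 libraries was used, in 6 groups of 3 by genotype and day as labelled. The values are counts of reads per Ensembl gene, whole numbers as deposited by the authors, in 1 table of 21995 genes with no normalization. The submitters' processing notes name Novoalign, DESeq2 1.10.0 and the builds mm10 and GRCm38; how reads were counted, and with what use of strand, is not stated there. Reads shared by near-identical genes may therefore be split or lost.

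Genes with low counts were removed with filterByExpr (minimum count 10, minimum total 15), leaving 18352. A quasi-likelihood model was fitted to all 18 libraries with 1 coefficient per group (edgeR 4.0.16, limma 3.58.1, R 4.3.3, TMM factors), and parental day 6 was contrasted with parental day 2. Adjusted p-values are Benjamini-Hochberg values over all genes tested, the threshold was 0.05, and the SE is the log2 fold change divided by the root of F. The difference from the same step in Oct1 cKO was a second contrast. A fold against a group at 0 was set against a floor of 3 counts per library, which covers counting error only. Named genes were the 4 markers, the 12 largest increases and 12 largest decreases (official symbols, no overlap between days, log2 CPM averaging 1 or more), the 8 highest genes at 0 in either group, the 15 highest at day 6, up to 6 members of each list in either direction with defining members, and 16 genes compared between lines. Another 38 genes, among them the microRNA genes and the list members Smad2, Pecam1 and Lin28a, were named after their values were seen. The members and lists were chosen with earlier results of these data known. The test was also run on simulated counts in which few genes changed, and the outcome is not given here. Most genes changed in these data, so that run cannot show how the scaling behaves in them. Alternatives were DESeq2 1.42.0, other scaling factors, no filter, only the 6 libraries, glmTreat, and leaving out each library.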

Additional observations from a re-analysis of the deposited data

Results flagged for a closer look

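The day 2 to day 6 change differed between parental and Oct1 cKO cells in 14 of the 15 compared genes that had counts in every group, each by an edgeR test of the difference itself at an adjusted p under 0.05, against 63.5% of all genes tested. Values are parental minus Oct1 cKO changes on the log2 scale. The difference was positive for Dcx (7.67), Gata6 (3.45), Hoxa9 (2.52), Nanog (2.28), Tcf21 (2.23), Tagln (1.5), Cdh2 (0.94) and Col4a1 (0.37). It was negative for Pou5f1 (-4.17), Cdh1 (-3.18), Hand1 (-2.96), Hoxb1 (-2.86), Cdx2 (-1.57) and Sox2 (-1.39). The Sox2 and Tcf21 differences rest on values near the floor of 3 counts per library. Sox2 had 0, 0.311 and 0.261 CPM in parental and 0.953, 0.405 and 0.572 CPM in Oct1 cKO libraries at day 6. Tcf21 averaged 0.188 CPM in Oct1 cKO at day 2. Nanog fell by 4.08 in parental and by 6.37 in Oct1 cKO cells, and Hoxa9 fell by 1.18 in parental and by 3.70 in Oct1 cKO cells. Cdx2 rose by 2.66 in parental and by 4.23 in Oct1 cKO cells.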

How the results depend on the processing

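Counts of genes called moved by less than 1.5 times under other scaling factors, no filter, DESeq2 and a fit to only the 6 libraries, while glmTreat against a fold of 2 gave 2650 higher and 3010 lower by construction. Which direction held more calls turned under every one of these: 7826 were higher and 6777 lower, against 7200 and 7418 with DESeq2 size factors, 7274 and 7776 with DESeq2, 7876 and 8133 with no filter, 7043 and 7216 with only the 6 libraries, and 6469 and 8141 with library sizes alone, which moved the median of all genes by -0.18. Leaving out each library gave 7183 to 7236 higher and 7087 to 7139 lower, 3092 to 3145 at least 2-fold higher and 3825 to 3932 at least 2-fold lower. The difference between lines gave 11297 to 11463 calls. Of 435 named genes, 96 lost their call under some setting with the sign kept, and glmTreat against a fold of 2 alone lost 94. Library sizes alone lost 13 calls of named genes and DESeq2 lost 11. Of the same 435 genes, 5 changed sign under some setting, all with changes near 0 as fitted. With library sizes alone Ddx3y was -0.02, Map2 -0.08, Smad2 -0.03 and Pdgfrb -0.11; with only the 6 libraries Map2 was -0.01 and Pdgfrb -0.04; Pdgfrb was -0.02 with DESeq2 size factors and -0.01 with DESeq2. Leaving out a library gave -0.25 to 0.51 for S100a4, -0.06 to 0.11 for Map2 and -0.02 to 0.04 for Pdgfrb. Changes near 0.2 on the log2 scale are within reach of the scaling. No paired analysis was possible because the labels carry no replicate numbers, and those used here only follow accession order.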
